A study of Mus musculus with 9 samples.

Results

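Cldn5, Abcb1a, Flt1, Adgrl4, Itm2a, Myct1, Gkn3 and Rgs5 are genes of the resting blood vessel wall of the brain, and they were taken by name from the deposited count table by summing all RefSeq rows of each gene symbol. All 8 of 8 were found among the 38911 genes of the table. The 9 libraries were made from total RNA of mouse hippocampus after ribosomal RNA depletion, and the design describes 9 healthy adult BALB/c mice of specific pathogen free grade. The 3 libraries labelled SAE (sepsis-associated encephalopathy in the series title) come from mice that had cecal ligation and puncture, a surgical model of abdominal sepsis. The 3 labelled CCLF come from mice that had the same operation and were given flavonoids of Cuscuta chinensis at 200 mg/kg. The 3 labelled CTL come from sham-operated mice. The labels give no sex, age in weeks, time after surgery or vehicle. The comparison made here is SAE against CTL, and CCLF is described without a test.

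The blood-brain barrier is formed by endothelial cells that are sealed to each other by tight junctions, carry efflux pumps on the side facing the blood, and are covered by pericytes. Claudin 5, the product of Cldn5, is the main sealing claudin of these junctions, and P-glycoprotein, which Abcb1a encodes in rodent brain capillaries, pumps many drugs and lipophilic compounds back into the blood. Flt1 encodes a receptor that binds vascular endothelial growth factor (VEGF), Adgrl4 an adhesion G protein-coupled receptor of endothelium, Itm2a a membrane protein enriched in brain endothelium, and Myct1 a small endothelial membrane protein. Gkn3 marks arterial endothelium in the mouse brain. Rgs5, a regulator of G protein signalling, is a marker of pericytes.

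Facts of the whole table bear on how the values can be read. Library totals were 4626519 to 4895474 counts. Lcn2, an acute-phase gene that systemic inflammation is known to raise in brain endothelium, had 13, 14 and 6 counts in the SAE-labelled libraries, 6791, 9635 and 4524 in the CCLF-labelled ones and 13816, 14822 and 13246 in the CTL-labelled ones, which goes against the labels. The groups are therefore named by their labels throughout, and whether the labels stand on the right libraries was not tested. The 3 CCLF-labelled libraries differed from each other by less than counting error in many genes. Among genes with a mean of 10 to 50 counts, the chi-square of the 3 libraries had a median of 0.341 times its value under counting error alone in CCLF, against 1.49 times in SAE and 1.42 times in CTL. Among genes with a mean of 200 to 1000 counts it was 1.08 times in CCLF, 2.13 times in SAE and 2.17 times in CTL. Of these better-counted genes 16.85% in CCLF lay below the 5th percentile under counting error, against 2.75% in SAE and 1.93% in CTL. Separately sequenced libraries cannot be expected to agree more closely than counting error, so no SD or test is given for CCLF. The mean of the CCLF-labelled libraries also lay between the SAE and CTL means in 3876 of the 3912 genes that differed between SAE and CTL, which is 99.1%.

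The letters just before the transcription start of 4 of the genes are shown because Cldn5 fell and Itm2a, Flt1 and Gkn3 rose in the same libraries. Each run is the 250 bases before the start, from RefSeq on GRCm38.p6, 5′ to 3′ on the strand of the gene. Capitals mark exact matches, on either strand, to short core strings of 5 to 10 bases, one or more for each of ETS, SOX, TCF/LEF, KLF and NF-kB factors and the TATA box, which are spelled out beside their counts.
Cldn5, chr16:18776597-18776846, plus strand: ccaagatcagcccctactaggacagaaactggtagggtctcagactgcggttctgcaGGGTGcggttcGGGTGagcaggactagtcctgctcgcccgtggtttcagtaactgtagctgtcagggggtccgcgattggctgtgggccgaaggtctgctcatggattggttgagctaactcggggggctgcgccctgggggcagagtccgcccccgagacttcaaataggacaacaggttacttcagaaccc
Itm2a, chrX:107403361-107403610, minus strand: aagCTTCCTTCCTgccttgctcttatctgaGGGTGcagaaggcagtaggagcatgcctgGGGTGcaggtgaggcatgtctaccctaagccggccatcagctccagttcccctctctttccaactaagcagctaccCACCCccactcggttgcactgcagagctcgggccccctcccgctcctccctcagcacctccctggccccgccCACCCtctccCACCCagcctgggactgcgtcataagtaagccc
Flt1, chr5:147726012-147726261, minus strand: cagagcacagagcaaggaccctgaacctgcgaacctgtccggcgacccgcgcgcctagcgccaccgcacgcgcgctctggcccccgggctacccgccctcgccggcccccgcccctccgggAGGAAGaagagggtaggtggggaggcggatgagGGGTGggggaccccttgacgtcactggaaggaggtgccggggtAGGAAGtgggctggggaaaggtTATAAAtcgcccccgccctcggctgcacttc
Gkn3, chr6:87388936-87389185, minus strand: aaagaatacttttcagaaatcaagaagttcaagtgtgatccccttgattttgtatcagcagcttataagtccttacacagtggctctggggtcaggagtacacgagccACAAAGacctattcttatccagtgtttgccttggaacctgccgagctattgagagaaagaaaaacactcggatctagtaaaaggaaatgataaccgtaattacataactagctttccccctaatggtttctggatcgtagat
The KLF string CACCC, which reads as its complement GGGTG where it lies on the other strand, has 2 matches in the Cldn5 window, 5 in that of Itm2a, 1 in that of Flt1 and none in that of Gkn3. It is a common string, present in 52% of the 32851 RefSeq windows of this length. For ETS factors AGGAAG has 2 matches in each of the Itm2a and Flt1 windows, with the 2 of Itm2a overlapping each other on the other strand, and is present in 29.5% of all windows. Another ETS string, CGGAAG, is found in 13.6% of windows and in none of the 8. Flt1 has a TATAAA that begins 31 bases before the start, as Myct1 does at 33 bases, and 12.4% of windows hold that string. The SOX string ACAAAG of Gkn3 is found in 16.5% of windows. The TCF/LEF string CTTTGA, in 13.8% of all windows, is found in those of Abcb1a and Rgs5, which are not printed. Among windows not printed, AGGAAG also has 2 matches in that of Abcb1a and 1 in that of Adgrl4. CACCC has the same numbers in these windows, and ACAAAG has 1 match in that of Abcb1a. The NF-kB run of 10 bases is in 0.14% of all windows and in none of the 8. These matches describe the letters of these windows only.

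Of the 8 genes, 6 were higher in the SAE-labelled libraries, 1 was lower and 1 did not pass the test. The call rule was a Benjamini-Hochberg adjusted p under 0.05 in edgeR's quasi-likelihood test of all 8213 genes that passed a filter on low counts. By the same rule 47.6% of all tested genes differed, 23.7% higher and 23.9% lower, and the 8 genes were picked with earlier results of these data in view, so their share is a description. Counts of 7 of the 8 did not overlap between SAE and CTL after scaling, against 55.7% of all tested genes. Gkn3, Myct1 and Abcb1a passed the filter through their SAE counts alone, so that a difference was built into their being tested. In RNA from whole tissue, a lower number of cells of a type and less RNA per cell cannot be told apart.

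**Figure D1:**
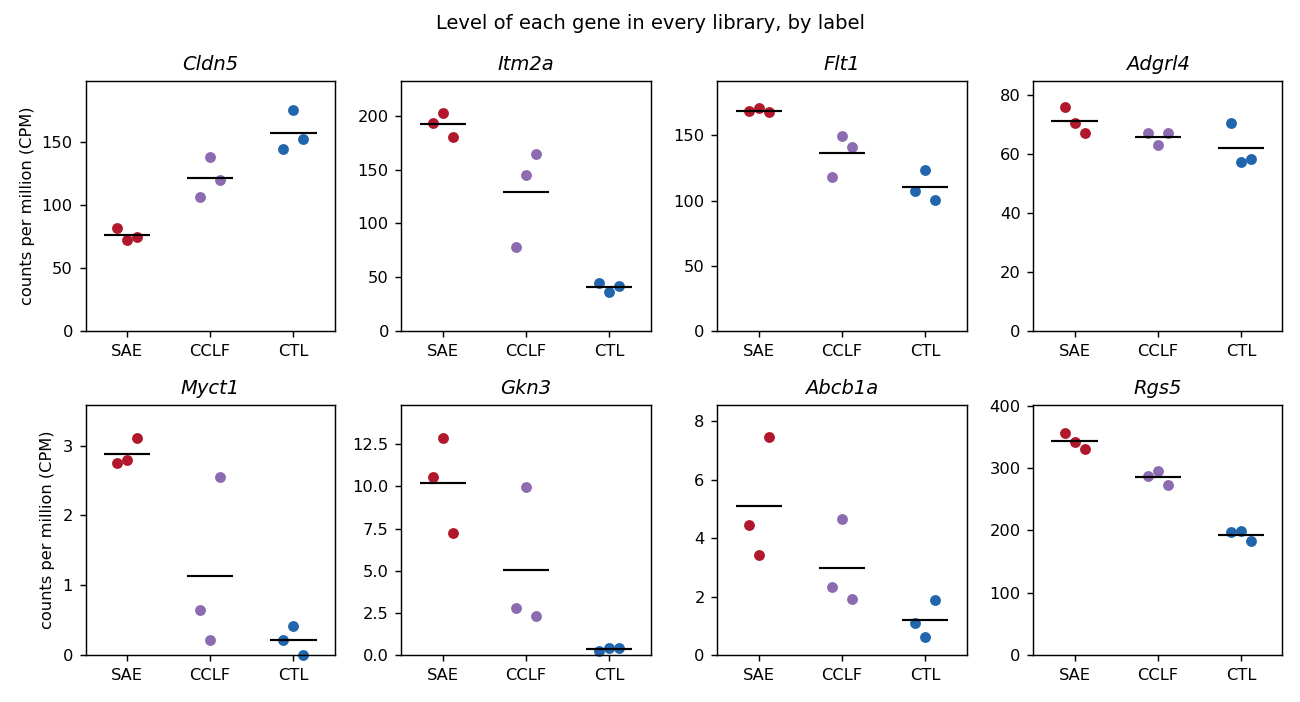
Level of each of the 8 genes in every library, in CPM (counts per 1000000, linear axes from 0, a different range in each panel), by label with SAE left, CCLF in the middle and CTL right; points are libraries and lines are means of 3. Cldn5 is lowest in SAE at 72.0 to 81.7 CPM, and the CCLF mean lies between the other means in every panel.

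Cldn5 was the gene that fell. It had 386, 336 and 362 counts in the SAE-labelled libraries, 501, 651 and 567 in the CCLF-labelled ones, and 660, 842 and 732 in the CTL-labelled ones. The 3 labels do not overlap, with CCLF between the other 2. On the scale of counts per 1000000 (CPM) Cldn5 averaged 76.2 ± 4.97 in SAE and 158 ± 16.0 in CTL (mean ± SD, n = 3 each). Its log2 fold was −1.06 ± 0.08 (± SE, adjusted p = 8.22e-11), a level 2.08-fold lower in SAE. All of its counts came from its single RefSeq row, so the value does not depend on how reads were shared between transcripts.

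Abcb1a, the efflux pump gene, had 21, 16 and 36 counts in SAE, 11, 22 and 9 in CCLF, and 5, 3 and 9 in CTL. It was higher in all 3 SAE-labelled libraries than in any CTL-labelled one, at few counts and with a wide spread. Its log2 fold was 2.06 ± 0.43 (adjusted p = 0.000302), and the ratio of summed counts per total was 4.36, with a 95% exact counting interval of 2.55 to 7.89. Abcb1b, a close paralog on the same chromosome that encodes another P-glycoprotein of rodents, went the other way, with 24, 38 and 25 counts in SAE, 58, 42 and 33 in CCLF, and 47, 58 and 57 in CTL (log2 fold −0.91 ± 0.23, adjusted p = 0.00191). The sum of the pair was 45, 54 and 61 in SAE and 52, 61 and 66 in CTL, which overlap. Abcb1a made up 45.6% of the pair's counts in SAE (exact 95% interval 37.7 to 53.7), 24.0% in CCLF and 9.5% in CTL (5.63 to 14.8). These intervals cover counting error only. How the counting shared reads between these close paralogs was not tested, and the change of Abcb1a alone is uncertain.

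Flt1, the VEGF receptor gene, rose in SAE. It had 796, 796 and 811 counts there, 557, 705 and 664 in CCLF, and 492, 594 and 483 in CTL. SAE lies above all other libraries, and the CCLF values overlap those of CTL. Its level was 169 ± 1.47 CPM in SAE and 111 ± 11.8 CPM in CTL (SD, n = 3 each), with a log2 fold of 0.60 ± 0.07 (adjusted p = 1.85e-07).

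Flt1 is the only one of the 8 with more than 1 well-counted transcript. Of its 6 RefSeq rows, the one with most counts encodes a receptor of 1333 residues over 30 exons in the GENCODE M21 annotation, and the next encodes a protein of 688 residues over 13 exons. A shortened, secreted FLT1 that binds VEGF without signalling is well known in mouse and human. The long row had 539, 572 and 570 counts in SAE, 345, 473 and 427 in CCLF, and 316, 385 and 307 in CTL. The short row had 257, 223 and 239 in SAE, 212, 231 and 236 in CCLF, and 172, 208 and 176 in CTL. Both rows were higher in every SAE-labelled library than in any CTL-labelled one. The ratio of mean CPM was 1.70 for the long row and 1.32 for the short one. The short row held 29.9% ± 2.17 of Flt1 counts in SAE and 35.5% ± 0.838 in CTL (SD, n = 3 each), a difference of −5.55 percentage points. The groups do not overlap, and an exact two-sided permutation test gave p = 0.1, the smallest that 3 against 3 libraries allow. The share in CCLF was 38.1%, 32.8% and 35.5%. Counts per transcript are estimates where transcripts share exons.

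**Figure D2:**
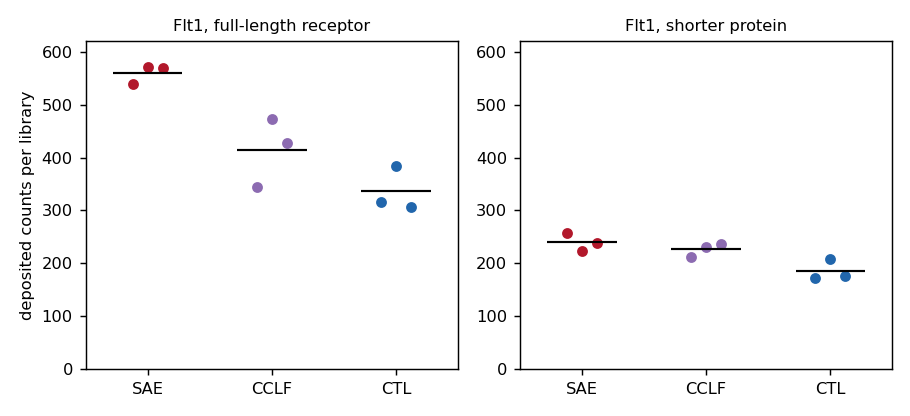
Deposited counts of the 2 main Flt1 transcripts in each library, by label with SAE left and CTL right; points are libraries and lines are means. The full-length row sits at 539 to 572 counts in SAE and at 307 to 385 in CTL, and the short row at 223 to 257 in SAE and at 172 to 208 in CTL.

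Adgrl4, the endothelial adhesion receptor gene, was the member that did not pass. It had 360, 330 and 325 counts in SAE, 316, 298 and 316 in CCLF, and 323, 276 and 281 in CTL. The SAE and CTL ranges overlap on the CPM scale, at 67.3 to 76.2 in SAE and 57.5 to 70.7 in CTL. Its log2 fold was 0.19 ± 0.10 (adjusted p = 0.111), and it passed without CTL replicate 1 (0.29, adjusted p = 0.0301). Missing the threshold does not show that the level was the same.

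Itm2a had the largest fold among the members with over 100 counts in every library. Its counts were 914, 946 and 869 in SAE, 367, 682 and 774 in CCLF, and 204, 174 and 201 in CTL. SAE and CTL are far apart, and CCLF replicate 1 lies nearer to CTL than the other two do. The level was 192 ± 11.6 CPM in SAE and 40.9 ± 4.29 CPM in CTL (SD, n = 3 each), a log2 fold of 2.22 ± 0.08 (adjusted p = 9.65e-17) or 4.66-fold.

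Myct1 was near the limit of detection. It had 13, 13 and 15 counts in SAE, 3, 1 and 12 in CCLF, and 1, 2 and 0 in CTL. All SAE counts exceed all CTL counts, while CCLF replicate 3 alone comes near to SAE. With only 3 counts in CTL the ratio of counts per total, 13.9, has a 95% counting interval of 4.43 to 70.1. Its adjusted p was 4.57e-05.

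Gkn3, the arterial marker, showed the largest fitted fold of the 8. It had 50, 60 and 35 counts in SAE, 13, 47 and 11 in CCLF, and 1, 2 and 2 in CTL. SAE and CTL do not overlap, and CCLF replicate 2 stands among the SAE values while the other 2 do not. Its level was 10.2 ± 2.83 CPM in SAE and 0.351 ± 0.114 CPM in CTL (SD, n = 3 each), with a log2 fold of 4.75 ± 0.43 (adjusted p = 2.08e-09). The ratio of summed counts per total was 29.5, with a counting interval of 12.3 to 92.1.

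Rgs5, the pericyte marker, had the highest counts of the 8, at 1682, 1594 and 1593 in SAE, 1351, 1392 and 1280 in CCLF, and 899, 954 and 876 in CTL. No label overlaps another. The level was 343 ± 13.2 CPM in SAE and 193 ± 8.84 CPM in CTL (SD, n = 3 each), with a log2 fold of 0.82 ± 0.05 (adjusted p = 6.54e-12) or 1.76-fold. Of its 2 RefSeq rows one held 99.9% of the counts.

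**Figure D3:**
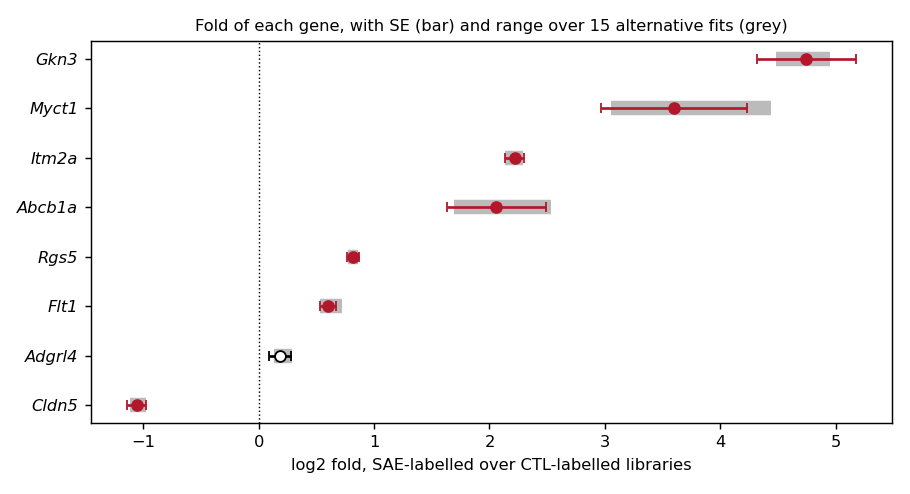
Log2 fold of SAE-labelled over CTL-labelled libraries for each gene (points, with SE bars; filled points passed an adjusted p of 0.05, the open one did not) and the range of the fold over 15 alternative fits (grey). Cldn5 stands left of 0 at −1.06, Adgrl4 is near 0 at 0.19, and the folds above it run up to 4.75 for Gkn3, where CTL had 5 counts in all; Myct1 rests on 3 CTL counts.

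The genes did not keep their proportions to one another. Within a library, the count of Itm2a relative to Cldn5 was 2.37, 2.82 and 2.40 in SAE, 0.733, 1.05 and 1.37 in CCLF, and 0.309, 0.207 and 0.275 in CTL. That of Flt1 relative to Cldn5 was 2.06, 2.37 and 2.24 in SAE, 1.11, 1.08 and 1.17 in CCLF, and 0.745, 0.705 and 0.660 in CTL. Adgrl4, which did not pass on its own, stood at 0.933, 0.982 and 0.898 of Cldn5 in SAE, 0.631, 0.458 and 0.557 in CCLF, and 0.489, 0.328 and 0.384 in CTL. SAE and CTL did not overlap in any of these ratios, which do not depend on how libraries are scaled. Cldn5 divides all of them and does not overlap between SAE and CTL itself. The ratios therefore restate the values above and add no separate support, least of all for Adgrl4. They were chosen after values were seen and are given with no test.

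**Figure D4:**
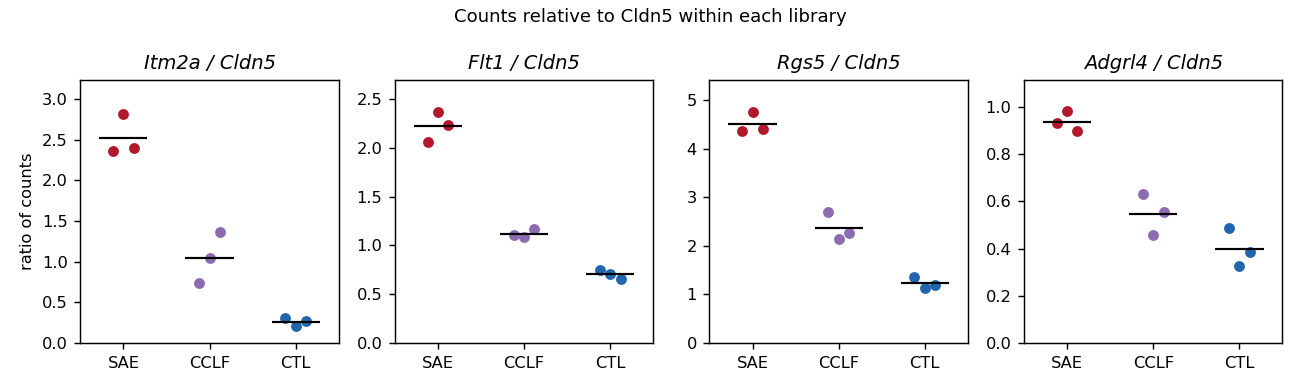
Counts of Itm2a, Flt1, Rgs5 and Adgrl4 divided by the count of Cldn5 in the same library (linear axes from 0), by label with SAE left and CTL right; points are libraries and lines are means. Itm2a to Cldn5 runs from 2.37 to 2.82 in SAE and from 0.207 to 0.309 in CTL.

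In the CCLF-labelled libraries the mean of each of the 8 genes lay between the SAE and CTL means. Measured from CTL towards SAE on the CPM scale, it stood at 34.5% of the way for Myct1, 38.8% for Adgrl4, 43.9% for Flt1, 44.1% for Cldn5, 45.4% for Abcb1a, 47.3% for Gkn3, 58.3% for Itm2a and 61.4% for Rgs5. Over all 3912 genes that differed between SAE and CTL the median was 49.8%, with quartiles of 37.0% and 62.9% and 7 of the 8 members lay within these quartiles. CCLF overlapped neither other label for Cldn5, Itm2a and Rgs5. It overlapped CTL for Flt1, Myct1 and Adgrl4, and SAE for Gkn3 and Abcb1a. The spread of the 3 CCLF-labelled libraries was taken as a chi-square over its median under counting error. It was 109 for Itm2a, 24.8 for Gkn3 and 14.1 for Cldn5, and was below 1 for Adgrl4 alone (0.563). The CCLF median over genes with a mean of 10 to 50 counts, which include Gkn3, was 0.341. Over genes with a mean of 200 to 1000 counts, which include Itm2a, Cldn5 and Adgrl4, it was 1.08.

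Genes of the same cells and pathways were then read from fixed lists that leave out the 8 genes. Large parts of these lists could not be tested, and genes that brain tissue is known to express, such as Pecam1 and Vegfa, are listed at 0 in every library, so a 0 in this table does not show that a gene was silent. Others of that kind, such as Aqp4, had few counts, so a low count need not show a low level either. Folds of such genes carry the same doubt. Of all tested genes 23.7% were higher and 23.9% lower in SAE, shares to be set beside each list. Their median log2 fold was 0.0049.

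Endothelial identity genes moved both ways. Of 29 in the table, 12 were tested, and 5 were higher, 2 lower and 5 not called (median log2 fold 0.21). Without CTL replicate 2, 3 were higher and 1 lower. Pltp, a phospholipid transfer protein gene of brain endothelium, rose to 227 ± 47.0 CPM in SAE, against 89.3 ± 8.60 in CTL (log2 fold 1.34 ± 0.19, adjusted p = 0.00366). Podxl, which encodes the sialomucin podocalyxin, rose by a smaller step (0.21 ± 0.07, adjusted p = 0.0103). Cd93, a transmembrane lectin gene of endothelium, fell to 42.0 ± 6.48 CPM in SAE, against 184 ± 3.65 in CTL (−2.15 ± 0.09, adjusted p = 8.42e-16). Ramp2, a partner of the adrenomedullin receptor, had 0.23 ± 0.11 (adjusted p = 0.0815). Arterial and venous genes had 4 higher, 1 lower and 7 not called of 12 tested (median 0.15), with 2 higher without CTL replicate 2. Tmem252 fell to 3.17 ± 0.688 CPM in SAE, against 63.0 ± 7.64 in CTL (−4.31 ± 0.18, adjusted p = 5.22e-16). Stmn2, placed in this list but best known as a neuronal gene, rose by 0.14 ± 0.04 (adjusted p = 0.00492). The matrix protein gene Mgp (−0.14 ± 0.20, adjusted p = 0.631) and the Notch target Hey1 (0.18 ± 0.14, adjusted p = 0.307) did not pass.

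Cldn5 had few junction genes to be set beside. Of 24 tight and adherens junction genes, 5 were tested, with 0 higher, 1 lower and 4 not called in edgeR (median −0.32). At an unadjusted p under 0.05 the numbers were the same, 0 and 1, and DESeq2 and limma-voom also called 0 higher. The one called was F11r, which encodes junctional adhesion molecule A, at 48.0 ± 5.83 CPM in SAE and 59.5 ± 8.45 CPM in CTL (−0.32 ± 0.11, adjusted p = 0.0245). That call was lost without SAE replicate 2 or 3 and without CTL replicate 1 or 2, where 0 were lower, and with DESeq2. Without SAE replicate 3 and without CTL replicate 1, 1 gene was higher. Cldn1 had −0.83 ± 0.38 (adjusted p = 0.154), Jam2 0.62 ± 0.30 (adjusted p = 0.095) and Cldn3 −0.39 ± 0.39 (adjusted p = 0.425). Ocln and Tjp1, which encode occludin and ZO-1, had at most 2 and 12 counts in any SAE- or CTL-labelled library and were not tested.

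Barrier transport genes were called in each direction about as often as all tested genes. Of 31, 15 were tested, with 4 higher, 4 lower and 7 not called (median 0.06), against 23.7% higher and 23.9% lower of all. At an unadjusted p under 0.05, 4 were higher and 7 lower. Slco2b1, called higher with 17, 27 and 29 counts in SAE and 5, 7 and 5 in CTL, passed the filter on low counts through SAE alone. Slc16a1, a carrier of lactate and ketone bodies, fell to 163 ± 1.57 CPM in SAE, against 344 ± 77.4 in CTL (−1.08 ± 0.19, adjusted p = 0.0110). Lrp1, a receptor for lipoproteins and amyloid beta, fell by less (−0.20 ± 0.03, adjusted p = 1.83e-05). The large amino acid carrier Slc7a5 had 0.06 ± 0.06 (adjusted p = 0.407). Among those with higher folds were the glutamine carriers Slc38a5, at 20.4 ± 0.995 CPM in SAE and 4.45 ± 1.05 CPM in CTL (2.18 ± 0.21), and Slc38a3 (1.79 ± 0.22), which were picked out after values were seen.

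Wnt and beta-catenin signalling keeps the barrier properties of brain endothelium in place. Of 27 such genes, 15 were tested, with 4 higher, 0 lower and 11 not called in edgeR (median 0.15). At an unadjusted p under 0.05, 1 was lower, and DESeq2 called 0 and limma-voom 1 lower, as did edgeR without SAE replicate 1 or 3, and 2 were lower without CTL replicate 3. The 4 with the highest levels were all among those not called. Tnfrsf21, which encodes death receptor 6, had 0.0016 ± 0.05 (adjusted p = 0.980), Apcdd1 had −0.17 ± 0.09 (adjusted p = 0.129), Ppard −0.18 ± 0.10 (adjusted p = 0.143), and Fzd4, the receptor of norrin, −0.59 ± 0.23 (adjusted p = 0.0884). Ndp, the norrin gene itself, was one of the 4 that rose (1.17 ± 0.14, picked after values were seen).

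Most tested genes on the list of VEGF and angiopoietin ligands and receptors, set beside Flt1, were lower. Of 21, 11 were tested, with 1 higher, 7 lower and 3 not called (median −0.85), where 23.9% of all tested genes were lower. Without SAE replicate 3 or CTL replicate 3, 3 were higher. The list also holds genes that are neither VEGF nor angiopoietin genes, such as Notch1. Vegfa is listed at 0, and Vegfb and Pgf had at most 3 and 1 counts in any SAE- or CTL-labelled library. These ligand genes were not tested, so the list does not show whether VEGF signalling through Flt1 was lower. Angptl4, a lipase inhibitor gene, fell to 6.90 ± 2.28 CPM in SAE, against 133 ± 54.3 in CTL (−4.28 ± 0.50, adjusted p = 0.00278). Angpt2, a ligand that destabilises vessels, fell to 8.11 ± 1.93 CPM in SAE, against 55.5 ± 1.26 in CTL (−2.78 ± 0.15, adjusted p = 1.25e-13), and Notch1 fell by less (−0.69 ± 0.06, adjusted p = 5.96e-10). Tie1 had 0.21 ± 0.10 (adjusted p = 0.0790). The VEGF receptor genes did not move as one. Kdr, the main signalling receptor of VEGF-A, rose like Flt1 (1.03 ± 0.24, adjusted p = 0.00109). The lymphatic receptor gene Flt4 (−1.05 ± 0.14, adjusted p = 9.18e-07) and the co-receptor gene Nrp1 (−2.10 ± 0.41, adjusted p = 0.000156) fell. Nrp1, with 7, 7 and 4 counts in SAE, passed the filter on low counts through CTL alone, so that its difference was built into its being tested. Kdr, Flt4 and Nrp1 were picked after values were seen.

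Beside Rgs5, pericyte genes had 3 higher, 0 lower and 5 not called of 8 tested out of 21 (median 0.30). At an unadjusted p under 0.05, 4 were higher and 0 lower, and DESeq2 and limma-voom called 4 higher and 0 lower. Rgs4, expressed in neurons as well, rose (0.39 ± 0.06, adjusted p = 0.000154), as did Cspg4, which oligodendrocyte precursors share, to 114 ± 2.89 CPM in SAE, against 66.0 ± 14.6 in CTL (0.78 ± 0.12, adjusted p = 0.000258). Vtn, the vitronectin gene, had 0.54 ± 0.19 (adjusted p = 0.0728), and Pdgfb, the endothelial signal that recruits pericytes, 0.21 ± 0.12 (adjusted p = 0.157). Pdgfrb, Kcnj8 and Abcc9, which define pericytes, are listed at 0 in every library. Smooth muscle genes had 0 higher, 1 lower and 5 not called of 6 tested (median −0.12), the same numbers as at an unadjusted p under 0.05, with DESeq2 and with limma-voom. None of the 4 named passed, with Acta2 at −0.31 ± 0.16 (adjusted p = 0.118), Des at −0.19 ± 0.20, Sncg at −0.05 ± 0.19 and Lmod1 at 0.28 ± 0.21.

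**Figure D5:**
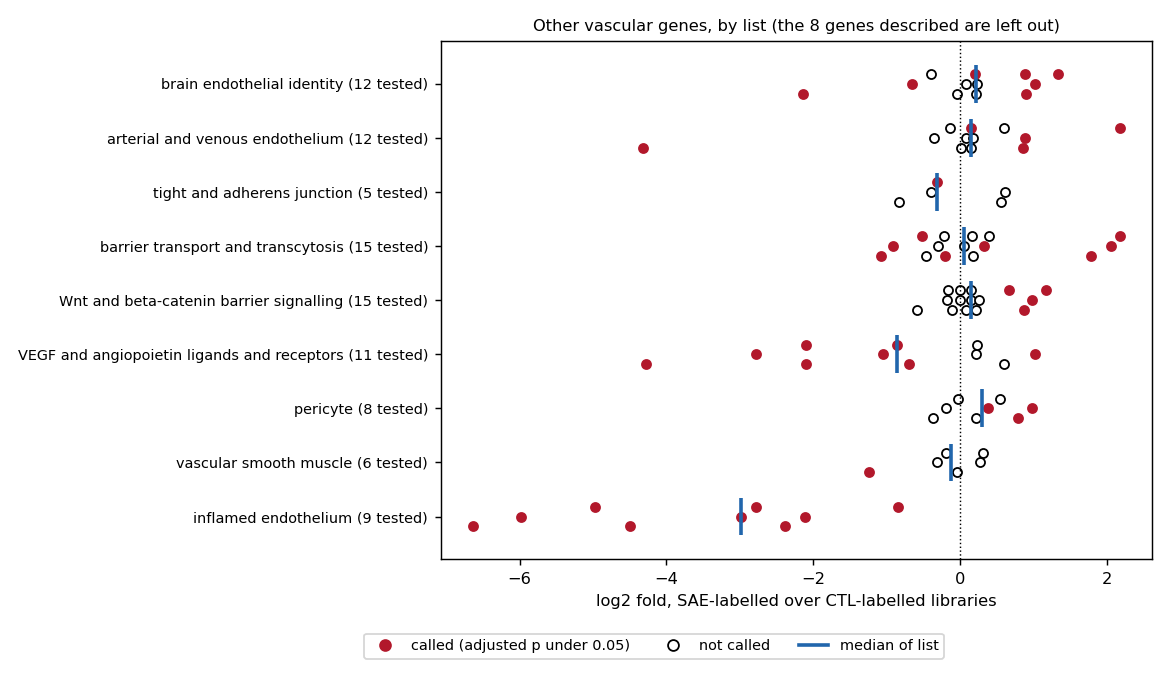
Log2 fold of SAE-labelled over CTL-labelled libraries for every tested gene of 9 vascular lists (red points passed an adjusted p of 0.05, open points did not, blue lines are list medians). The VEGF and angiopoietin list centres on −0.85 and the inflamed endothelium list on −2.98, while the identity, transport, Wnt and pericyte lists centre between 0.06 and 0.30.

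Genes of inflamed endothelium moved opposite to most of the 8. All 9 tested of 16 were lower in SAE (median −2.98), where 23.9% of all tested genes were. Selp and Cxcl1, with at most 4 and 8 counts in any SAE-labelled library, passed the filter on low counts through CTL alone, so that their difference was built into their being tested. The list summed to 265 to 328 CPM in SAE, 772 to 921 in CCLF and 1244 to 1595 in CTL. Icam1, a leukocyte adhesion gene, had 8.95 ± 1.70 CPM in SAE and 281 ± 39.3 CPM in CTL (−4.98 ± 0.15, adjusted p = 4.12e-10), and Vcam1 had 144 ± 4.55 CPM in SAE and 255 ± 23.9 CPM in CTL (−0.84 ± 0.07). Nfkbia (−2.11 ± 0.28) and Cebpd (−2.38 ± 0.14) fell too. The list shares Angpt2 with the VEGF list. Other lists overlap as well. Kdr, Tie1 and Ramp2 are in both the identity and the VEGF list. The arterial and venous list shares Vwf with the identity list, Slc38a5 with the transport list and Vegfc with the VEGF list. Kdr, Vwf and Slc38a5 were thus counted as higher in each of their lists, so the counts of the lists are not independent.

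Markers of neighbouring cells and tissues were read for the same libraries, on the CPM of all counts. The hippocampal neuron list, a check of the tissue, had 0 of 14 markers at 0 and summed to 13103 to 13464 CPM in SAE, 12309 to 12770 in CCLF and 11786 to 12072 in CTL, with Slc17a7 at 6355 ± 67.6 CPM in SAE and 5658 ± 130.2 CPM in CTL. Slc17a7 and Nrgn (3474 CPM in SAE, 3035 CPM in CTL) made up most of these sums. Prox1 and Gpr161 had at most 11 and 14 counts in any SAE- or CTL-labelled library and were not tested. Of the 12 tested genes of the list 5 were higher and 3 lower. Astrocyte endfoot genes, whose processes wrap these vessels, summed to 3411 to 3533 CPM in SAE, 3339 to 3694 in CCLF and 3207 to 3495 in CTL. Of 7 tested, 2 were higher and 4 lower, where 23.7% of all tested genes were higher and 23.9% lower. The gap junction gene Gja1 was at 1.11 ± 0.05 and the glutamate carrier Slc1a3 at −0.21 ± 0.03. Among the 4 lower, Aqp4 (4, 7 and 7 counts in SAE) and Gjb6 (3, 9 and 10) passed the filter on low counts through CTL alone. All 6 tested microglia genes were higher, where 23.7% of all tested genes were, but Siglech, with 0, 0 and 1 counts in CTL, passed the filter through SAE alone. The list summed to 786 to 848 CPM in SAE, 587 to 685 in CCLF and 433 to 567 in CTL, with P2ry12 and Gpr34 listed at 0. Fibroblast genes had 4 higher and 1 lower of 11 tested, with sums of 278 to 528 CPM in SAE, 340 to 361 in CCLF and 304 to 333 in CTL. Of 5 tested genes of erythrocytes 2 were lower and the others not called, with sums of 494 to 613 CPM in SAE, 577 to 597 in CCLF and 602 to 629 in CTL. Of 6 tested choroid plexus genes 1 was higher and the others not called (median 0.85), with 3 higher at an unadjusted p under 0.05. Of the 6, 3 did not overlap between SAE and CTL, against 55.7% of all tested genes. Their sums were 764 to 1553 CPM in SAE, 832 to 888 in CCLF and 561 to 880 in CTL, the highest in SAE replicate 1. Without that library, where choroid plexus sums in SAE were still 764 and 986 CPM, the log2 fold of Cldn5 was −1.10, of Itm2a 2.23, of Flt1 0.61, of Gkn3 4.73, of Myct1 3.64, of Abcb1a 2.16 and of Rgs5 0.80, and these 7 were called. That of Adgrl4 was 0.15 (adjusted p = 0.287). The part of all these markers, choroid plexus included, in the results was not tested.

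For each of the 8 genes, the tested genes with the closest pattern were found by the root mean square difference of log2 CPM over all 9 libraries, each gene centred on its own mean. Bcl2 differed from Flt1 by 0.0499 and Nudt13 by 0.0771, and Faap100 from Adgrl4 by 0.0493 and C1qtnf12 by 0.0569. For Rgs5 they were Pamr1 (difference 0.0803) and Srd5a1 (0.0835), and for Cldn5 2810049E08Rik (0.0885) and Zpr1 (0.106). For Itm2a they were Appl2 (0.180) and Plxnb3 (0.239), and for Gkn3 the microglial receptor gene P2ry13 (0.435) and Serinc2 (0.532). The low-count members Abcb1a and Myct1 were nearest to predicted genes, Abcb1a to Gm46210 (0.257) and Gm26944 (0.297), and Myct1 to Gm35959 (0.385) and Gm17484 (0.394).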

How the data were processed

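The authors deposited whole-number counts for 120312 RefSeq transcripts in 9 libraries, and fastp and Salmon are the tools named in the submitters' processing notes. The sources used here do not give their versions, the transcript index, the build or any rounding of Salmon estimates. All 120312 rows were matched by accession to symbols in the RefSeq table of GRCm38.p6, used for names, and summed to 38911 genes. The 6 SAE and CTL libraries were fitted alone, with edgeR's filterByExpr, trimmed mean of M values factors and the robust quasi-likelihood F test, adjusted by Benjamini-Hochberg over 8213 genes. Each SE was taken as |log2 fold| over the root of its F. CPM values use factors from all 9 libraries (0.987 to 1.017). In simulated counts for this comparison (7917 genes), 93.6% of 94 genes changed 2-fold and 100% of 96 changed 4-fold were recovered, with 8 false calls. Every gene was drawn with the common dispersion of 0.00443, so these figures do not cover genes that vary more between libraries. Recovery was counted among changed genes that passed the filter, out of 200 set to change. Sample titles carry the word dup and a replicate number. That each library is its own mouse rests on the design's numbers alone and was not tested, and every SD and p-value here assumes it.

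The members and lists were chosen with earlier results of these data known. Genes named are the 8 members, up to 4 genes of highest mean level per list and 2 pattern neighbours per member. Lcn2 and those said to be picked after values were seen are named as well. Named too are Abcb1b, Selp, Cxcl1, Siglech, Slco2b1, Aqp4, Gjb6, Pecam1, Vegfa, Ocln, Tjp1, Pdgfrb, Kcnj8, Abcc9, P2ry12 and Gpr34. Vegfb, Pgf, Vwf, Vegfc, Prox1 and Gpr161 are named to state limits of the lists. Some genes that the rule names, mainly in lists of other cell types, are not reported here. Counting intervals are exact at 95% and cover counting error only. Alternatives were other scaling factors, DESeq2, limma-voom, other filters, all 9 libraries, a replicate block, the top transcript of each gene, and each library left out. Fits ran in edgeR 4.0.16 and limma 3.58.1 under R 4.3.3, with DESeq2 1.42.0 as an alternative. Tables, intervals and plots used scipy 1.17.1, matplotlib 3.10.9, pandas 2.3.3 and numpy 2.4.6 in Python 3.11.15.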

Additional observations from a re-analysis of the deposited data

How the results depend on the processing

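Of the 8 genes, 7 kept their direction and their call under all 15 alternatives. Cldn5 ran from −1.12 to −0.98, Itm2a from 2.13 to 2.29, Flt1 from 0.53 to 0.72, Gkn3 from 4.48 to 4.95, Myct1 from 3.05 to 4.43, Abcb1a from 1.69 to 2.53 and Rgs5 from 0.78 to 0.86. Adgrl4 ran from 0.13 to 0.29 with adjusted p from 0.0301 to 0.343, called in 1 alternative, without CTL replicate 1 (0.29). With each library left out it ran from 0.13 to 0.29. Genes called in all numbered 3912 here, 3186 with DESeq2 and 4318 with all 9 libraries, whose common dispersion was 0.00711 against 0.00443.

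Small counts in the lists moved more, and the cause was not tested. Endothelial identity genes called lower were 2 here and 1 with DESeq2, and with each library left out 3 to 7 were higher and 1 to 3 lower. Junction genes called lower were 1 here, 0 with DESeq2, 2 with limma-voom and 2 with the replicate block, and with each library left out 0 to 1 in either direction. Wnt genes called lower were 0 here and 1 with limma-voom, with no filter, with all 9 libraries and with the replicate block, and 0 to 2 with each library left out. VEGF genes called higher were 1 here and 2 with upper-quartile factors, with no filter and with all 9 libraries, and 1 to 3 with each library left out. Arterial and venous genes called higher were 4 here and 2 with DESeq2, and 2 to 5 with each library left out. Deviations of same-numbered SAE and CTL libraries from their group means had correlations of 0.0264, −0.013 and 0.0227 across genes. The SAE-labelled library was closest to the CTL-labelled library of its own number for replicates 1 and 3. With 3 libraries per group these values cannot show whether samples were handled in pairs. With the replicate block Cldn5 was −1.05 and 3892 genes were called, and it changed no member's call. Few counts limit the precision of Myct1 and Abcb1a.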
